A study of Homo sapiens with 6 samples.

Results

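The antisense noncoding genes of a human colon cancer line are described here, meaning genes named after a neighbouring gene with the ending -AS1, -AS2 or -AS3. OIP5-AS1 was left out, and a gene was kept where its mean over the 6 libraries reached 1 TPM, a level that scales a gene's reads by its length and by the size of the library. Of 28307 gene names in the deposited tables, 1232 had such an ending, 605 of these were above 0 TPM in at least 1 library, and 243 met the rule. The members were thus chosen by their measured level, and no statement on that level is tested. They comprised 230 genes ending in -AS1, 10 in -AS2 and 3 in -AS3. RefSeq held 228 of the 243, and all 228 were listed there as noncoding.

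All libraries came from SW480, an established line from a colon adenocarcinoma. Cells of both groups had received a pLENTI CMV lentivirus and were kept under puromycin. The control lines (Clover, 3 libraries) carried a fluorescent protein, and the test lines (Z18trunc, 3 libraries) carried a shortened form of ZC3H18, a nuclear zinc-finger protein that links the cap-binding complex to RNA decay. The study's methods state that lines were made in biological triplicate, and nothing in the labels ties a numbered Clover line to a numbered Z18trunc line. The transgene was driven by the viral CMV promoter, and the methods describe no editing of the endogenous ZC3H18 gene in these lines, so the truncated form was added to the cells' own protein.

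An antisense gene is transcribed from the strand opposite to its coding neighbour. Many start beside the neighbour's own start and run the other way, from a shared stretch of open promoter DNA, and others start within the neighbour or run into its end. Such RNAs are often rare and kept in the nucleus, and unstable antisense RNAs are classic substrates of the nuclear exosome, which ZC3H18 contacts through its adaptor complexes. The comparison of Z18trunc with Clover asks whether the members, as measured in polyadenylated RNA, differ when the truncated protein is present. The stability of these RNAs was not measured.

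Of the 12 members with the smallest p-values described below, 10 start within 1000 bases of their coding partner on the opposite strand, an arrangement called head-to-head. The promoter windows of 4 of them are shown, those with both starts within 150 bases of each other and an antisense start in RefSeq equal to the deposited one, since they show the stretch that the 2 genes share. Each window runs from 250 bases before to 50 bases after the antisense start, is read 5′ to 3′ on the antisense strand from RefSeq (GRCh38.p14), and has the stretch from one start to the other in capitals as far as the window reaches.
URB1-AS1 (chr21:32392883-32393182, plus strand): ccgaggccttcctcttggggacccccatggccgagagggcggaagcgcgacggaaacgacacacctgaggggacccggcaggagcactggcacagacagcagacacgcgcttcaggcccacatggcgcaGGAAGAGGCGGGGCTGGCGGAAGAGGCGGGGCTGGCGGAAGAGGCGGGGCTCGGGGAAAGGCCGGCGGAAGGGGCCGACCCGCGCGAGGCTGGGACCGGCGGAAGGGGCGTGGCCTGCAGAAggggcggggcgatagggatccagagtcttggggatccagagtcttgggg
ZNF674-AS1 (chrX:46545240-46545539, plus strand): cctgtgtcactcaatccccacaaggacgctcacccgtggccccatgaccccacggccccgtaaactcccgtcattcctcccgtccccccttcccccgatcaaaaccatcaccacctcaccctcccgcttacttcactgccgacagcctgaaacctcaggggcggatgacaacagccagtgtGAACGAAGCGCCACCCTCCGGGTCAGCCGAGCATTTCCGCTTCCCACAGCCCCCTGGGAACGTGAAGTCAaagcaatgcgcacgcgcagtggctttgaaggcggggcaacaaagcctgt
PRKAG2-AS1 (chr7:151876792-151877091, plus strand): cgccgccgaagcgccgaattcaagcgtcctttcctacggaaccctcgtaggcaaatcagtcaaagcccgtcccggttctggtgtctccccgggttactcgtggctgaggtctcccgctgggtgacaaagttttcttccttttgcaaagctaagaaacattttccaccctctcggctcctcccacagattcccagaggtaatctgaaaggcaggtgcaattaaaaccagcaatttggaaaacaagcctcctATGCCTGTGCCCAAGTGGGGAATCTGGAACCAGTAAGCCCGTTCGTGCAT
KMT2E-AS1 (chr7:105014092-105014391, minus strand): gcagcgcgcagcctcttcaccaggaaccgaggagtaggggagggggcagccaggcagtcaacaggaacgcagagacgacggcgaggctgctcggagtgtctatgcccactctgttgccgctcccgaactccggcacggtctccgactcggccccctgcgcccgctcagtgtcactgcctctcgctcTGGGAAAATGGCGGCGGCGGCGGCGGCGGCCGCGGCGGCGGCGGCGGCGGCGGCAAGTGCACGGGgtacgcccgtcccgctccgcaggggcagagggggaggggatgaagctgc
The antisense RNA begins at base 251 of each window. The coding RNA leaves in the other direction from base 130 for URB1, 182 for ZNF674 and 187 for KMT2E, so the genes of these 3 pairs diverge without overlap at their starts. For PRKAG2 the coding start would be base 324, beyond the window, and the 73 bases between the starts lie in both genes. The GC content was 71.3% for URB1-AS1, 62.0% for ZNF674-AS1, 53.3% for PRKAG2-AS1 and 72.3% for KMT2E-AS1.

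Promoter windows were found for 183 of the 243 members. Their median GC content was 64.3%, beside 58.3% over 27305 gene promoters of the same length and 66.5% over 196 partner promoters. The 74 head-to-head members found had a median of 67.7% and the 28 members lying inside their partner 62.5%. Both strands were searched for TATAAA (the TATA box), the letters CCAAT of the CCAAT box, GGGCGG (the GC box) and CCGGAAG (an ETS-type site), none of which contains another. TATAAA was in 8 of the 183 windows (4.37%) against 11.9% of all promoters, CCAAT in 54 (29.5%) against 35.7%, GGGCGG in 109 (59.6%) against 44.6%, and CCGGAAG in 23 (12.6%) against 10.7%. Among the printed windows, GGGCGG occurs in that of URB1-AS1 at bases 37 to 42 and 253 to 258, and in that of ZNF674-AS1 at bases 159 to 164. The other letters searched do not occur in the 4 windows. These matches describe the letters of the windows only.

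Aligned fragments numbered 18226033 to 22463310 per library, so 1 TPM corresponds to between 8.50 and 10.8 fragments per kilobase of transcript, and the rarest members rest on few fragments. ZC3H18 stood at 57.2 ± 5.39 TPM in Clover and 763 ± 31.2 TPM in Z18trunc (SD, n = 3 each), a log2 change of 3.72 (limma adjusted p = 3.21e-05), and its gene value holds the endogenous and the introduced RNA together. Of 12 markers of intestinal epithelium, 9 were at 1 TPM or more in every library, and CDX1, CEACAM5 and LGR5 were listed at 0 throughout. Of 11 markers of blood, fibroblast, endothelial and pigment cells, COL1A1 and PMEL reached 1 TPM in every library, 5 were at 0 throughout, and their sum was 3.25 to 4.14 TPM in Clover and 3.20 to 5.25 TPM in Z18trunc. The part of these cells in any result was not tested. In bulk libraries, fewer cells that express a gene and less of its RNA per cell cannot be told apart.

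Strand matters for these genes, since a read from the wrong strand of an abundant coding gene would count as antisense RNA. Ribosomal RNA repeats carried 0.164% to 0.423% of their fragments on the opposite strand. Of the exonic bases of TTN-AS1, 54.9% lie over exons of TTN, the giant muscle protein. TTN-AS1 averaged 1.98 TPM and TTN was above 0 in a single library, at 0.0019 TPM. With TTN nearly silent, this pair cannot show whether reads of an abundant coding gene were kept out of antisense values. EML2-AS1 lies almost wholly over exons of EML2, with 95.0% of its exonic bases, and averaged 10.6 TPM beside 39.2 TPM for EML2. Over the 217 members with exons of both genes in GENCODE 44, the median overlap was 5.66% of the antisense exonic bases, 52 had none and 12 had 50% or more. How the gene tables assigned reads where exons of both strands coincide is not given in the sources used here, so the levels of members with large overlaps are the least certain.

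The antisense genes were rarer than other genes. Their median level was 3.31 TPM beside 15.1 TPM over all 13300 genes of at least 1 TPM, with 69 members under 2 TPM, 79 at 5 TPM or more, 41 at 10 TPM or more and 5 at 50 TPM or more. PAX8-AS1 (hg38, chromosome 2, 113235527 to 113267023, plus strand), which lies inside the gene of the developmental transcription factor PAX8, was the most abundant, at 96.3, 92.3 and 94.8 TPM in the Clover libraries and 109, 99.5 and 102 TPM in the Z18trunc libraries. Its lowest Z18trunc value exceeded its highest Clover value, and the difference was 0.13 on the log2 scale of TPM + 1 (limma adjusted p = 0.271). HOXB-AS3 (hg38, chromosome 17, 48590420 to 48606412, plus strand), from the HOXB cluster of body-axis genes, followed with 70.1, 86.2 and 75.7 TPM in Clover and 75.9, 78.2 and 71.0 TPM in Z18trunc, which overlap. ELFN1-AS1 (hg38, chromosome 7, 1738631 to 1742310, minus strand), an RNA studied in colorectal tumours, had 63.9, 63.0 and 59.2 TPM in Clover and 50.8, 50.1 and 57.4 TPM in Z18trunc. It was the most abundant member with every Z18trunc library below every Clover library, at a log2 change of -0.23 (limma adjusted p = 0.129).

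The next members by level were DLGAP1-AS2, PITPNA-AS1, MRPL20-AS1, PRKAR1B-AS1, IGFL2-AS1, SPINT1-AS1, FGD5-AS1, EPB41L4A-AS1 and VPS9D1-AS1. DLGAP1-AS2, named after a scaffold protein of synapses, averaged 53.3 TPM with Clover lines at 59.5, 47.7 and 32.1 TPM, and its Z18trunc values of 59.4, 52.8 and 68.6 TPM overlapped them. PITPNA-AS1 and MRPL20-AS1, beside a lipid transfer protein and a mitochondrial ribosomal protein, overlapped between the groups, with log2 changes of 0.0026 and 0.01 that turned to -0.09 and -0.08 after quantile normalization. FGD5-AS1 (hg38, chromosome 3, 14942779 to 14948441, minus strand) had 25.4, 20.9 and 28.0 TPM in Clover and 33.4, 39.0 and 31.2 TPM in Z18trunc, without overlap, a log2 change of 0.47 (SE 0.13, limma adjusted p = 0.0903). VPS9D1-AS1 had 28.0, 27.4 and 26.8 TPM in Clover and 24.1, 24.9 and 25.4 TPM in Z18trunc, again without overlap and lower, with a log2 change of -0.14 (limma adjusted p = 0.218). EPB41L4A-AS1, which hosts a small nucleolar RNA, averaged 29.0 ± 1.99 TPM in Clover and 28.5 ± 4.85 TPM in Z18trunc (SD, n = 3 each). These 12 genes held 33.0% to 35.4% of the summed antisense TPM of a library.

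**Figure D1:**
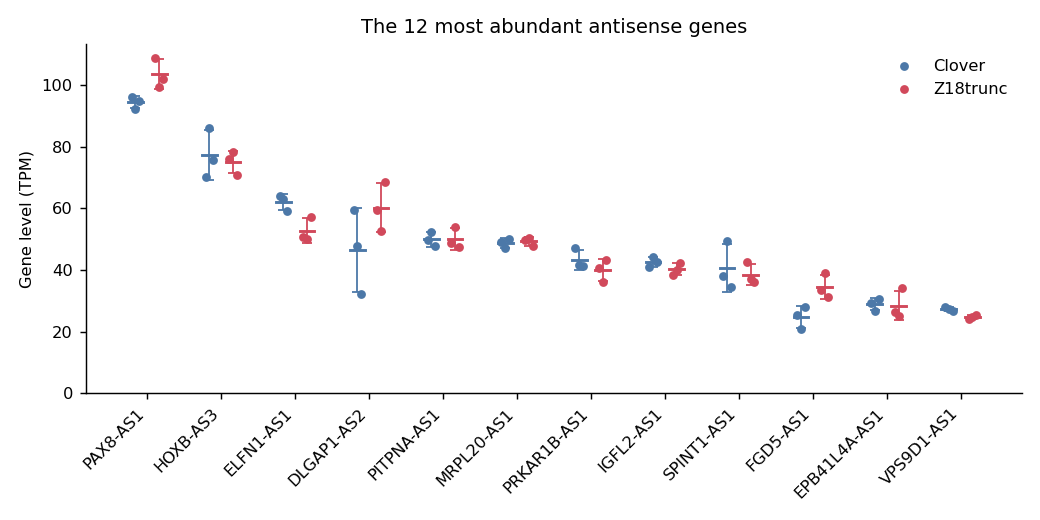
Level in TPM of the 12 most abundant antisense genes in the Clover (blue) and Z18trunc (red) libraries, with each library as a point and the mean with 1 SD as bar and whiskers. The groups overlap for 8 genes, PAX8-AS1 and FGD5-AS1 are higher in all 3 Z18trunc libraries, and ELFN1-AS1 and VPS9D1-AS1 are lower in all 3. Over all genes, 30.1% were higher and 6.73% lower without overlap.

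Mean levels of an antisense gene and of its partner had a Pearson r of 0.01 and a Spearman rho of 0.04 across 233 pairs, a description over genes measured in the same libraries. The gene tables list a partner for 233 members. The other 10 were RPARP-AS1, DARS-AS1, PGM5P3-AS1 and the 7 members named after a HOX cluster. RefSeq lists 229 partners as protein coding. The antisense gene was above its partner in 61 pairs, and in 29 of these the partner was under 1 TPM. PAX8-AS1 reached 1543% of PAX8, ELFN1-AS1 2307% of ELFN1, and IGFL2-AS1, named after a secreted growth factor-like protein, 3056% of IGFL2. Where the partner was at 1 TPM or more, the median antisense gene reached 20.6% of it. In 9 pairs it stayed under 1% of the partner. MIF-AS1, ARF4-AS1 and GAS5-AS1, at 0.126%, 0.360% and 0.380% of their abundant partners, lay below 0.423%, the highest opposite-strand share of the ribosomal repeats, and the part of wrong-strand reads in their levels was not tested.

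By position, 102 of the 243 members were head-to-head with the partner, 69 overlapped part of it and 39 lay wholly inside it. A further 10 spanned it, 12 did not overlap it and 1, OR2A1-AS1, was listed on its strand. Of the 12 most abundant members, 6 lay inside the partner gene, while of the 12 with the smallest p-values 10 were head-to-head.

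No antisense gene passed the test between Z18trunc and Clover. Limma on log2(TPM + 1) called 0 of 243 at an adjusted p under 0.05, beside 2 of 13300 genes (0.0150%), which were ZC3H18 and RGPD6. At an unadjusted p under 0.05, 40 members were higher in Z18trunc and 10 lower (16.5% and 4.12%), against 25.6% and 2.90% of all genes. In 44 members all Z18trunc values lay above all Clover values and in 14 all lay below (18.1% and 5.76%), against 30.1% and 6.73% of all genes. The median log2 change was 0.10 in the members, with quartiles of -0.09 and 0.27, and 0.11 over all genes. The change of the median member was thus close to that of the median gene.

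The spread among lines was wider for these genes. The median within-group SD on the log2 scale was 0.19 for members and 0.13 for all genes. Among genes of at least 5 TPM it was 0.15 and 0.11, and among genes under 5 TPM 0.23 and 0.19. The wider spread thus held in both ranges, but levels were not matched within them. Members were rarer, with a median level of 3.31 TPM beside 15.1 TPM over all genes, and the spread was larger under 5 TPM. The part of level in the wider spread of the members was not tested. Quantile normalization, which gives every library the same distribution of values, moved the median of all genes from 0.11 to -0.01 and that of the members from 0.10 to -0.06. After it, 17 members were higher and 35 lower at that unadjusted threshold, against 12.8% and 10.9% of all genes, and 0 were called. With FPKM in place of TPM, 26 members were higher and 18 lower (10.7% and 7.41%), against 20.1% and 7.53% of all genes. The split of the members between higher and lower thus depends on the scaling of the libraries.

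**Figure D2:**
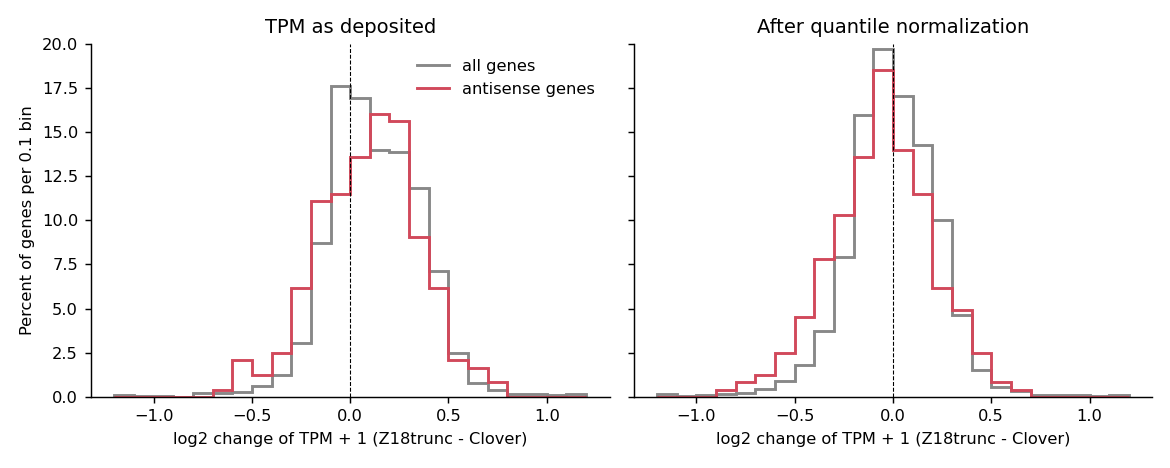
Distribution of log2 changes of TPM + 1 between Z18trunc and Clover for all 13300 genes (grey) and the 243 antisense genes (red), in percent of genes per bin of 0.1, with values beyond the axis put in the end bins. The medians are 0.11 and 0.10 for the deposited values (left) and -0.01 and -0.06 after quantile normalization (right).

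Where only genes of at least 5 TPM were tested, 474 of 9973 genes (4.75%) passed and so did 6 of 79 members (limma adjusted p from 0.0486 to 0.0495). These were SPRY4-AS1, ZNF674-AS1, PRKAG2-AS1, RPARP-AS1, URB1-AS1 and EXOC3-AS1, of which PRKAG2-AS1 was lower and the others higher. The calls rest on the choice of genes tested, since the same values gave adjusted p-values of 0.0773 to 0.0783 over 13300 genes. EXOC3-AS1, head-to-head with a subunit of the exocyst, is named here after its values were seen and had 9.07, 7.43 and 8.58 TPM in Clover and 11.95, 10.6 and 12.5 TPM in Z18trunc.

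The 12 members with the smallest p-values among those without overlap all stood at a limma adjusted p of 0.0773, so none passed. Of these, 10 were higher in Z18trunc and 2 lower, and all 12 kept their direction after quantile normalization. They were selected on these differences, which are therefore descriptions, and 11 of them are given one by one. PAN3-AS1 (hg38, chromosome 13, 28136843 to 28139174, minus strand) starts 629 bases from PAN3, a subunit of a deadenylase that shortens poly(A) tails, and had 1.51, 1.71 and 1.57 TPM in Clover and 2.71, 2.96 and 3.12 TPM in Z18trunc. Its log2 change was 0.60 (SE 0.08) and 0.45 after quantile normalization. KMT2E-AS1 (hg38, chromosome 7, 105010542 to 105014141, minus strand), which starts beside the chromatin regulator KMT2E, had 3.23, 3.54 and 2.86 TPM in Clover and 5.54, 5.89 and 6.50 TPM in Z18trunc. Its log2 change was 0.73 (SE 0.09), with the window between both starts printed above. COA6-AS1 (hg38, chromosome 1, 234372807 to 234373593, minus strand), beside an assembly factor of cytochrome c oxidase, had 0.948, 1.84 and 1.504 TPM in Clover and 3.27, 2.88 and 3.19 TPM in Z18trunc, the largest log2 change of all members at 0.78 (SE 0.14).

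SPRY4-AS1 (hg38, chromosome 5, 142325293 to 142464054, plus strand) starts 272 bases from SPRY4, an inhibitor of receptor tyrosine kinase signalling, and had 3.90, 4.85 and 3.38 TPM in Clover and 6.97, 6.50 and 7.50 TPM in Z18trunc. ZNF674-AS1 (hg38, chromosome X, 46545490 to 46548475, plus strand), beside a zinc-finger gene on the X chromosome, had 7.98, 7.83 and 6.16 TPM in Clover and 10.8, 12.6 and 10.8 TPM in Z18trunc. URB1-AS1 (hg38, chromosome 21, 32393133 to 32393957, plus strand), which starts beside the ribosome biogenesis gene URB1, had 24.1, 20.1 and 21.3 TPM in Clover and 28.7, 28.2 and 29.0 TPM in Z18trunc. The lowest Z18trunc value exceeded the highest Clover value in each of the 3 genes, and the log2 changes were 0.67, 0.58 and 0.38. RPARP-AS1 (hg38, chromosome 10, 102449817 to 102456293, plus strand), whose partner is not listed, had 19.4, 19.7 and 18.5 TPM in Clover and 23.9, 26.1 and 23.7 TPM in Z18trunc. TTN-AS1 (hg38, chromosome 2, 178522827 to 178620217, plus strand) had 1.76, 1.41 and 1.27 TPM in Clover and 2.21, 2.68 and 2.57 TPM in Z18trunc, beside the near absence of its partner given above. ARF4-AS1 (hg38, chromosome 3, 57597789 to 57600915, plus strand) had 1.203, 0.855 and 1.24 TPM in Clover and 1.84, 2.26 and 1.84 TPM in Z18trunc, with a log2 change of 0.51. It lies over exons of ARF4, a small GTPase of the Golgi, with 54.3% of its exonic bases and reached the low share of ARF4 given above.

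Both lower members start beside their partner. PRKAG2-AS1 (hg38, chromosome 7, 151877042 to 151879223, plus strand), beside the gamma subunit gene of the energy sensor AMPK, had 6.44, 6.998 and 6.29 TPM in Clover and 4.998, 4.97 and 4.93 TPM in Z18trunc. The 3 Z18trunc lines were nearly equal, and the log2 change was -0.34 (SE 0.07). ZNF561-AS1 (hg38, chromosome 19, 9621482 to 9634862, plus strand), beside a zinc-finger gene of chromosome 19, had 2.46, 2.62 and 2.52 TPM in Clover and 1.80, 1.53 and 1.07 TPM in Z18trunc, a log2 change of -0.53 (SE 0.12) and of -0.66 after quantile normalization.

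**Figure D3:**
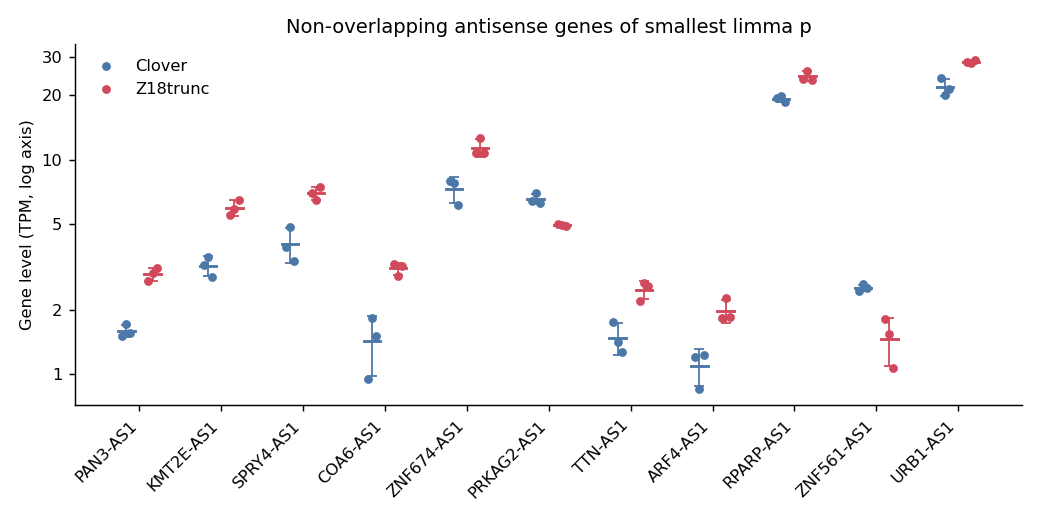
Level in TPM on a log axis of 11 of the 12 antisense genes with the smallest limma p among those without overlap, ordered by p, in the Clover (blue) and Z18trunc (red) libraries, with each library as a point and the mean with 1 SD as bar and whiskers. The other 9 genes lie higher and PRKAG2-AS1 and ZNF561-AS1 lower in all 3 Z18trunc libraries, and none passed the adjustment over 13300 genes.

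By position, 23 of 102 head-to-head members were higher and 3 lower at the unadjusted threshold of 0.05, with a median log2 change of 0.16. These are 22.5% and 2.94%, beside the 25.6% and 2.90% of all genes given above. Of 69 members that overlap part of the partner, 8 were higher and 2 lower (median 0.07), and of 39 inside the partner 3 were higher and 4 lower (median 0.06). The 12 without overlap with the partner had 4 higher and 0 lower (median 0.15), and the 10 that span it had 0 in either direction (median -0.06). The partners of head-to-head members stood at 36 higher and 2 lower of 98, and those of members inside them at 7 higher and 1 lower of 30, at the same unadjusted threshold. Among all 200 partners of at least 1 TPM, 30.5% were higher and 2.50% lower. A difference between the positions, or from all genes, was not tested.

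To ask whether an antisense gene differed from its own partner, the log2 ratio of the 2 genes was compared in 202 pairs with both at 1 TPM or more, among 2121 pairs of genes on opposite strands. The 2121 were neighbouring genes plus the member pairs taken by name, of which 11 neither overlap nor start within 1000 bases of each other. Limma called 0 pairs (0%), and at an unadjusted p under 0.05 there were 340 of all pairs in either direction (16.0%). Of the member pairs, 13 had a higher and 25 a lower antisense share in Z18trunc (6.44% and 12.4%), and the median log2 change of the ratio was -0.02. The changes of antisense gene and partner had a Pearson r of 0.15 and a Spearman rho of 0.17 across the 202 pairs, a description over pairs that share libraries. In 14 pairs both genes had an unadjusted p under 0.05, of which 13 were higher in both and 1 went opposite ways. At that threshold 25.6% of all genes were higher and 2.90% lower. The same count over all 2121 pairs was not made, so a link between antisense gene and partner was not tested.

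ZNF561-AS1 and ZNF561 were the pair that went opposite ways. ZNF561 had 3.28, 3.17 and 3.29 TPM in Clover and 4.98, 4.74 and 5.92 TPM in Z18trunc, without overlap and in the direction opposite to its antisense gene. The log2 ratio changed by -1.07 and did not pass (limma adjusted p = 0.0870), the largest of all member pairs in size. SBNO1-AS1 and RASSF8-AS1 are named here after their values were seen, for the next smallest p-values of the ratio along with ARF4-AS1 and ZNF674-AS1. SBNO1-AS1 had 18.7, 18.8 and 17.9 TPM in Clover and 13.2, 14.03 and 18.1 TPM in Z18trunc, where the third Z18trunc line overlaps the controls, while SBNO1 had 5.75, 4.59 and 5.46 TPM and then 6.44, 6.62 and 8.80 TPM. Its ratio changed by -0.68 (limma adjusted p = 0.0870). RASSF8-AS1 differed by -0.03 and RASSF8 by 0.54, giving a ratio change of -0.56 (limma adjusted p = 0.167). ARF4-AS1 and ZNF674-AS1 went the other way, with ratio changes of 0.56 (limma adjusted p = 0.0899) and 0.55 (limma adjusted p = 0.174), beside changes of -0.05 in ARF4 and 0.03 in ZNF674, the latter -0.10 after quantile normalization.

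Among the other named members, KMT2E, PAN3 and SPRY4 were higher in all 3 Z18trunc libraries as their antisense genes were. KMT2E had 7.79, 6.72 and 8.90 TPM in Clover and 10.5, 10.8 and 14.4 TPM in Z18trunc (log2 change 0.55, limma adjusted p = 0.0849). PAN3 had 14.5, 11.02 and 11.2 TPM and then 16.7, 16.2 and 19.0 TPM, a log2 change of 0.47. In these pairs the ratio differed by 0.19, 0.12 and 0.35, and none was called. COA6 differed by 0.15 while COA6-AS1 differed by 0.78, a ratio change of 0.62 (limma adjusted p = 0.179).

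**Figure D4:**
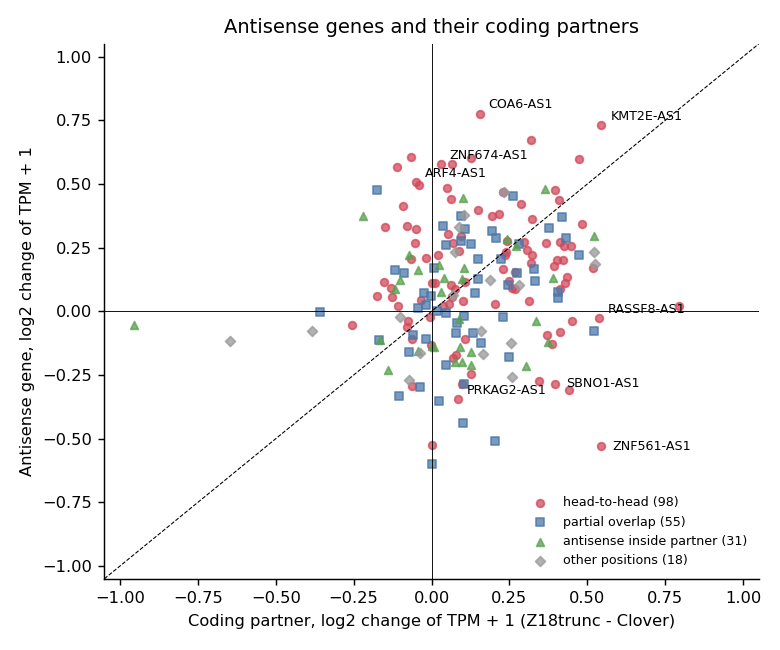
Log2 change of TPM + 1 between Z18trunc and Clover of 202 antisense genes (vertical) against that of their coding partners (horizontal), coloured by position, with equal change on the dashed line. The correlation is 0.15, and ZNF561-AS1 is the point farthest below the dashed line.

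A second measure came from transposable elements (TEs), the repeats whose fragments the study counted by strand. Fragments of TE copies lying wholly inside 1 gene on its own strand were summed, and 167 members had at least 30 such fragments. The fragments come from the same libraries and can be part of the same reads as the gene values. EdgeR called 48 of 10819 genes (0.444%) and 1 member, OR2A1-AS1. At an unadjusted p under 0.05, 22 members were higher and 4 lower (13.2% and 2.40%), against 15.5% and 0.897% of all genes. With TMM scaling the members stood at 5 higher and 14 lower (2.99% and 8.38%), against 4.29% and 5.60% of all genes. With DESeq2 they stood at 3 higher and 9 lower (1.80% and 5.39%), against 2.19% and 3.78% of all genes. The median log2 change was 0.17 in the members and 0.23 over all genes, and with TMM scaling or DESeq2 the members stood at -0.05 in both and all genes at 0.01 in both. Across the 167 members the TE and TPM changes had a Pearson r of 0.46 and a Spearman rho of 0.35, and 111 went the same way.

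OR2A1-AS1 lies in an olfactory receptor cluster of chromosome 7 (hg38, 144195321 to 144312406) that holds near-identical copies, so its reads can be split between places and its values are uncertain. OR2A1-AS1 is also listed on the same strand as its partner OR2A1, so its fragments as counted are not antisense to that gene. Its 87 TE copies held 197, 132 and 130 fragments in Clover and 280, 201 and 211 in Z18trunc. Scaled to the aligned fragments as CPM, these are 7.43 ± 1.17 and 11.2 ± 1.22 (SD, n = 3 each), without overlap, and the log2 change was 0.59 (edgeR adjusted p = 0.0492). The call was lost with TMM scaling (log2 change 0.38, edgeR adjusted p = 0.312), with DESeq2 (adjusted p = 0.156), with uniquely mapped counts (log2 change 0.71, edgeR adjusted p = 0.137) and when Clover 2, Clover 3 or any Z18trunc library was left out (log2 change from 0.50 to 0.66, edgeR adjusted p from 0.0670 to 0.191). In TPM it overlapped, at 0.655, 2.04 and 0.846 in Clover and 0.939, 1.42 and 1.65 in Z18trunc.

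FGD5-AS1 held 597, 401 and 561 TE fragments in Clover and 770, 676 and 656 in Z18trunc, from 6 TE copies. Scaled the same way these were 25.4 ± 3.95 and 34.2 ± 2.92 CPM (SD, n = 3 each), higher in all 3 Z18trunc libraries as in TPM, with a log2 change of 0.43 (edgeR adjusted p = 0.0509). PAX8-AS1 held 572, 432 and 467 fragments in Clover and 705, 584 and 611 in Z18trunc, which is 23.9 ± 1.45 and 30.8 ± 1.55 CPM (SD, n = 3 each) with a log2 change of 0.36 (edgeR adjusted p = 0.0627). Of the 12 members with the smallest p in TPM, 10 could be tested on TE fragments, 9 went the same way and 5 did so without overlap. Over all 10819 genes, 18.9% were higher and 2.09% lower without overlap on TE fragments. The 12 were chosen on TPM from the same libraries, so these counts are descriptions. The 4 genes given next are all among those 9. COA6-AS1 went from 2, 4 and 4 fragments to 15, 9 and 12, KMT2E-AS1 from 7, 7 and 9 to 17, 19 and 17, and PAN3-AS1 from 3, 6 and 7 to 13, 14 and 12. ZNF561-AS1 had 45, 36 and 36 fragments in Clover and 33, 26 and 19 in Z18trunc. These counts are small, and none of the 4 passed (edgeR adjusted p from 0.118 to 0.284).

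**Figure D5:**
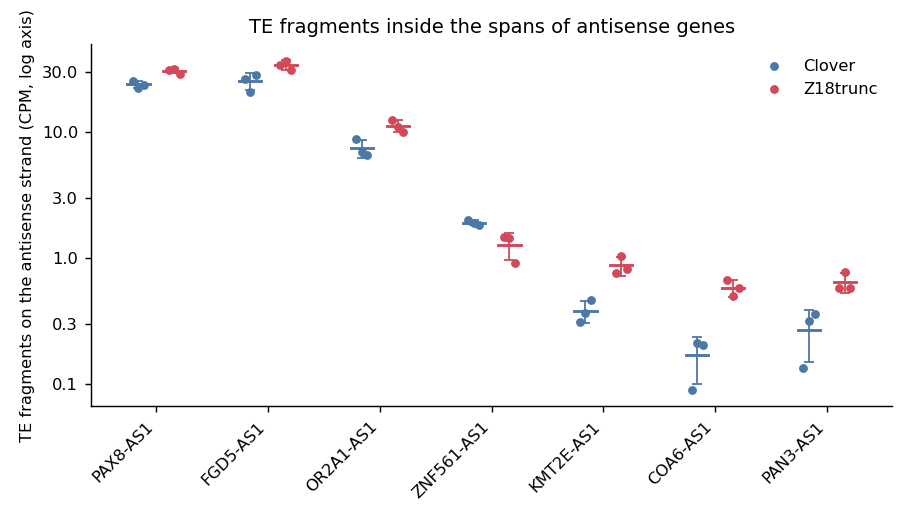
TE fragments inside 7 antisense genes, on the listed strand of each, in CPM of the aligned fragments on a log axis. Each Clover (blue) and Z18trunc (red) library is a point, with the mean and 1 SD as bar and whiskers. OR2A1-AS1 is listed on the same strand as its partner OR2A1. Only OR2A1-AS1 passed the edgeR test, ZNF561-AS1 is lower in all 3 Z18trunc libraries, and the other 6 genes are higher in all 3.

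Of 17 antisense RNAs studied in colorectal and other cancers, 11 were members and 6 did not reach 1 TPM. Their mean levels ran from 1.91 TPM for MCM3AP-AS1 to 57.4 TPM for ELFN1-AS1. Limma on TPM called 0 of the 11, and 4 had an unadjusted p under 0.05, where 25.6% of all genes were higher and 2.90% lower. In 3 of the 11 the Z18trunc libraries were all higher and in 1 all lower, beside the 30.1% and 6.73% of all genes without overlap given above. On TE fragments edgeR called 0 of the 6 tested, and DESeq2 called ELFN1-AS1, which edgeR gave an adjusted p of 0.383. FOXD2-AS1 had 4.42, 5.43 and 6.08 TPM in Clover and 7.16, 7.45 and 6.12 TPM in Z18trunc, a log2 change of 0.33 (limma adjusted p = 0.138). SBF2-AS1 had 3.53, 2.86 and 3.72 TPM in Clover and 4.04, 3.93 and 4.27 TPM in Z18trunc, higher in each line, as was SBF2 with a log2 change of 0.47 (limma adjusted p = 0.0773). ZEB1-AS1, beside the gene of a repressor of epithelial genes, averaged 3.25 ± 0.349 TPM in Clover and 4.21 ± 0.651 TPM in Z18trunc (SD, n = 3 each), and the groups overlapped. THUMPD3-AS1, TMPO-AS1, PXN-AS1, LEF1-AS1, MCM3AP-AS1 and HOXA-AS2 overlapped between the groups, with log2 changes from -0.13 to 0.26.

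The 7 members from HOX clusters ranged from 1.26 TPM for HOXC-AS1 to 76.2 TPM for HOXB-AS3. Their log2 changes ran from -0.65 for HOXC-AS3 to 0.67 for HOXC-AS2, the members of 1 cluster standing at both ends. At an unadjusted p under 0.05, 25.6% of all genes were higher and 2.90% lower, and 2 of the 7 members passed that threshold. These 2, HOXC-AS2 and HOXB-AS1, went opposite ways.

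Summed over all 243 members, antisense RNA made up 1692 ± 39.1 TPM in Clover and 1778 ± 35.4 TPM in Z18trunc (SD, n = 3 each), and the lowest Z18trunc sum exceeded the highest Clover sum. The log2 ratio was 0.07 (exact two-sided permutation p = 0.1, the smallest that 3 against 3 libraries allow). After scaling each library to the same median gene the ratio was -0.09, so the direction of the sum turned with that scaling.

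Other kinds of noncoding gene were counted for comparison, with no test between them. Of 34 genes ending in -DT, which are divergent transcripts of coding genes, 10 were higher and 4 lower at the same threshold (median log2 change 0.16). Of 132 LINC genes, which lie between genes, 24 were higher and 7 lower (median 0.10). After quantile normalization these counts were 7 and 6 for the -DT genes (median -0.0040) and 11 and 24 for the LINC genes (median -0.07). The shares of all genes are those given above, 25.6% and 2.90% before this step and 12.8% and 10.9% after it. The 20 listed genes of nuclear RNA decay include ZC3H18, the only one called. At an unadjusted p under 0.05, 8 of the other 19 were higher and 1 was lower, with a median log2 change of 0.25. ZFC3H1, a scaffold of the decay of polyadenylated nuclear RNA, differed by 0.55 (limma adjusted p = 0.0918) and the exosome subunit EXOSC4 by -0.31 (limma adjusted p = 0.0851).

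At the threshold of the rule, HMGN3-AS1, ELF3-AS1 and PLS3-AS1 lay just inside with mean levels of 1.02, 1.03 and 1.07 TPM, and SAPCD1-AS1, RASSF1-AS1 and SLC25A5-AS1 just outside with 0.999, 0.997 and 0.994 TPM. A Clover mean under 1 TPM was found in 5 members and a Z18trunc mean under it in 0, so 5 were kept through their Z18trunc values. TMEM132D-AS1, whose partner was listed at 0 in every library, was the 1 member listed at 0 in a library, the second Z18trunc line.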

How the data were processed

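Polyadenylated RNA of 6 SW480 libraries, 3 per group, was prepared with a stranded kit and sequenced paired-end. The titles of the samples gave each library's group and number. Per the labels, reads were trimmed with cutadapt 4.6 and the build was hg38. The authors deposited gene tables with TPM and FPKM values and the coverage signal of each gene, without read counts, whose counting tool and strand setting are not given in the sources used here, and tables of transposable element (TE) copies from SQuIRE, in which the authors' estimated counts share multiply mapped fragments among copies beside whole-number counts of uniquely mapped fragments. The antisense genes and the gene lists were chosen with earlier results of these data known.

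TPM values were summed by gene name. Genes with a mean of at least 1 TPM entered limma 3.58.1 (R 4.3.3) on the log2(TPM + 1) scale, which understates the change of low genes, with Benjamini-Hochberg adjustment over 13300 genes. Ratios of antisense gene to partner were fitted over 2121 opposite-strand pairs. These were genes whose spans overlap or whose starts lie within 1000 bases, plus the member pairs taken by name. Estimated TE counts were rounded, summed over the copies wholly within 1 gene on the strand of the fragments, and compared by edgeR 4.0.16 (quasi-likelihood) at 30 or more fragments, with the aligned fragments as library size. Calls were made at an adjusted p of 0.05. The summed TPM was compared by an exact permutation test. The fits were run on simulated data in which some features changed by known amounts and the rest had no shift between groups. The simulated data thus do not cover the shift of the median gene in these libraries. Positions are those of the deposited tables, exons came from GENCODE 44, and promoters from RefSeq.

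Named were members called in a fit, the 12 most abundant, the 12 without overlap of smallest p, their partners, members among 17 studied RNAs, those beside the threshold, and ZC3H18. Members named outside this rule are marked as such, and 1 of those named by it is not reported here. The alternatives were a pseudocount of 0.1, no filter or 5 TPM, quantile normalization, FPKM, an intensity trend, a replicate block, TMM scaling, DESeq2 1.42.0, 10 fragments, uniquely mapped counts, and leaving out each library or the 5 most abundant members. The p-values of the fits set the difference between the groups against the spread between these lines.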

Additional observations from a re-analysis of the deposited data

How the results depend on the processing

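With 3 libraries per group and few fragments per gene at low TPM, small changes of rare antisense genes could not be resolved, and a p that misses the threshold does not show that levels were equal. Called members in the gene fit numbered 0 under every alternative except the fit of genes of at least 5 TPM, with 6, and called member pairs 0 under all. Among 79 members of at least 5 TPM, 14 were higher and 6 lower, and of member pairs at that level 3 were higher and 9 lower, counts that are smaller because fewer genes were tested. At an unadjusted p under 0.05, higher and lower members numbered 17 and 35 after quantile normalization, 26 and 18 with FPKM, and 34 to 50 and 9 to 14 without 1 library. Member pairs ranged from 12 to 17 higher and from 16 to 23 lower without 1 library. These are 5.94% to 8.42% and 7.92% to 11.4% of member pairs, against 5.33% to 7.26% and 5.85% to 7.54% of all pairs. Members without overlap numbered 19 higher and 37 lower after quantile normalization (7.82% and 15.2%, against 16.8% and 16.2% of all genes), 36 and 22 with FPKM (14.8% and 9.05%, against 24.1% and 13.4%), and 52 to 69 higher and 20 to 27 lower (72 to 92 in all) without 1 library, where fewer values must separate and 32.5% to 39.4% and 9.02% to 11.3% of all genes did so. The log2 ratio of summed TPM was 0.00378 with FPKM and -0.0944 with the median gene scaled. On TE fragments, called members numbered 0 with TMM scaling (6 of all genes), 1 with DESeq2 (ELFN1-AS1, 66 of all genes), 2 at 10 fragments (OR2A1-AS1 and FGD5-AS1, 94 of all genes), 3 with uniquely mapped counts (FGD5-AS1, PAX8-AS1 and PSMA3-AS1, 156 of all genes) and 0 to 1 without 1 library (3 to 136 of all genes). This was OR2A1-AS1 without Clover 1, FGD5-AS1 without Clover 3 and HIF1A-AS3 without Z18trunc 1, and 0 where Clover 2, Z18trunc 2 or Z18trunc 3 was left out. Members higher and lower there numbered 5 and 14 with TMM scaling, 3 and 9 with DESeq2, and 15 to 23 and 2 to 4 without 1 library. Replicate numbers do not pair the lines (correlations of same-numbered lines from -0.037 to 0.017). With a replicate block the gene, pair and TE fits each called 0 members. At the unadjusted threshold the gene fit had 46 higher and 12 lower (18.9% and 4.94%), against 24.0% and 2.27% of all genes. The pair fit had 14 and 20 (6.93% and 9.90%), against 6.65% and 7.12% of all pairs. The TE fit had 16 and 3 (9.58% and 1.80%), against 12.5% and 0.638% of all genes with a TE sum. The cause of these differences was not tested. Directions of named genes turned as follows. Quantile normalization gave PITPNA-AS1 -0.0927, MRPL20-AS1 -0.0833, THUMPD3-AS1 -0.0231, ZNF674 -0.10 and PRKAG2 -0.0784, and FPKM gave PITPNA-AS1 -0.0621, MRPL20-AS1 -0.0505 and ZNF674 -0.00876. Without 1 library the log2 changes ranged from -0.11 to 0.0418 for HOXB-AS3, -0.0518 to 0.0402 for PITPNA-AS1, -0.0121 to 0.0378 for MRPL20-AS1, -0.17 to 0.082 for SPINT1-AS1, -0.17 to 0.0462 for EPB41L4A-AS1, -0.0301 to 0.41 for OR2A1-AS1, -0.33 to 0.0179 for LEF1-AS1, -0.15 to 0.11 for MCM3AP-AS1, -0.30 to 0.0109 for PXN-AS1, -0.000175 to 0.0809 for ZNF674, -0.0223 to 0.23 for PRKAG2, -0.0994 to 0.0713 for RASSF8-AS1 and -0.0200 to 0.22 for the PAN3-AS1 to PAN3 ratio.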
